A study of Homo sapiens with 24 samples.

Results

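The p38 kinases are stress-activated protein kinases, and they are followed here with the kinases directly above and below them, 10 genes of the 59385 gene symbols counted. The 10 are MAP3K5, the MAP2Ks MAP2K3, MAP2K4 and MAP2K6, the p38 kinases MAPK11, MAPK12, MAPK13 and MAPK14, and the substrates MAPKAPK2 and MAPKAPK3. They were picked because MAP2K6 was lower in A549 cells carrying SIRT6 than in cells with empty vector, so the A549 values of MAP2K6 stand below as a description with no test. The other 9 belong by their place in the pathway and not by their values.

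The study measured RNA by sequencing in A549 and H1299, established human non-small cell lung cancer lines, after lentiviral delivery of SIRT6, a nuclear NAD-dependent deacylase. Each line carried stably 1 of 4 FLAG-tagged constructs: wild-type SIRT6 (WT), a form in which acetylation of 3 sites is prevented (K3R), a form that mimics acetylation at those sites (K3Q), or the empty vector (Ctr). The positions of the 3 sites are not given in the labels. All 8 groups therefore share transduction and the tag, and the SIRT6 groups are overexpression models driven by a vector whose promoter is not stated. Each group has 3 libraries, written here by biological replicate and batch: 1-1 and 1-2 are biological replicate 1 in batch 1 and batch 2, and 2-2 is biological replicate 2 in batch 2. The labels do not say whether these came from separate cultures, so p-values measure the spread between libraries, which may in part be technical.

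In the p38 pathway, MAP3Ks such as MAP3K5 (ASK1, which responds to oxidative stress) phosphorylate MAP2Ks, and these phosphorylate the p38 kinases on a threonine and a tyrosine of the activation loop. MAP2K3 and MAP2K6 act almost only on p38 kinases, whereas MAP2K4 acts on both p38 and JNK. Active p38 phosphorylates MAPKAPK2 and MAPKAPK3, which prolong the life of many inflammatory transcripts. RNA counts give no measure of this phosphorylation.

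The promoters of the genes on which the results turn are shown for orientation, as the 250 bases before each start in the RefSeq table of GRCh38.p14. MAP2K6 has 2 such starts, and both are shown. MAP2K3, the other MAP2K dedicated to p38, was the higher in H1299 where MAP2K6 was nearly absent. MAPKAPK3 is the member that passed a test between constructs in the fit without a replicate block. For MAP2K3 and MAPKAPK3, 1 of their 2 windows is shown. Capitals mark matches to motifs searched on both strands, and a match on the minus strand shows its reverse complement. The AP-1 motif was spelled TGAGTCA. The CRE motif was spelled TGACGTCA. The TATA motif was spelled TATAAA, and the GC box GGGCGG. The CCAAT box is its own spelling, and the E-box used was CACCTG. All 4 windows are given on the plus strand.

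MAP2K6, chr17:69414447-69414696: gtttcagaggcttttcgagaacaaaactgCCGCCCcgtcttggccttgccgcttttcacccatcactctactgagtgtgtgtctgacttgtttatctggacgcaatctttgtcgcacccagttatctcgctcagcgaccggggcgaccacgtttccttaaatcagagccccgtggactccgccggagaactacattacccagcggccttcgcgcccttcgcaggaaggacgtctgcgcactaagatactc
MAP2K6, chr17:69502012-69502261: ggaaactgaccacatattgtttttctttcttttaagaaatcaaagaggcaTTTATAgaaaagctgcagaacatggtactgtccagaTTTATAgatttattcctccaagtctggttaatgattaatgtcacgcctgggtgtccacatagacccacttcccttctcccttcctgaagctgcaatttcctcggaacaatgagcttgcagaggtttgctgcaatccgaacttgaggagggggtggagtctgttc
MAP2K3, chr17:21284461-21284710: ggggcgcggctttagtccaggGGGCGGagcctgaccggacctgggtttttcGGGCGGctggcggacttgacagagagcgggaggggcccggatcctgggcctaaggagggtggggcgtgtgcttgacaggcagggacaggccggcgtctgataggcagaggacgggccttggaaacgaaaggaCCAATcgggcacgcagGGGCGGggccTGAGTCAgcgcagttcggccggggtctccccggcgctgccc
MAPKAPK3, chr3:50616901-50617150: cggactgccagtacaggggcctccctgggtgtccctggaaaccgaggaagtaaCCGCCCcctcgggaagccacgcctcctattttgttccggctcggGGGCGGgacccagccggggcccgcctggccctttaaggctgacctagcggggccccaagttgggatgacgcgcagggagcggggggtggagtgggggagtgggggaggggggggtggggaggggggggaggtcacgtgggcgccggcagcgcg

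The window before the upstream MAP2K6 start held 20 CpG dinucleotides, 55.6% G and C, and a GC box on the minus strand 221 bases before the start. The window before the downstream start, which lies inside the gene, held 3 CpG dinucleotides, 43.2% G and C, and the TATA letters on the minus strand 200 and 164 bases before the start. The MAP2K3 window was richer, with 22 CpG dinucleotides and 70.4% G and C, and held the AP-1 letters 41 bases before the start beside 3 GC boxes and 1 CCAAT. The MAPKAPK3 window held 19 CpG dinucleotides, 72.8% G and C, and 2 GC boxes. Among 35116 windows of the same length in the table, the median was 11 CpG dinucleotides and 58.0% G and C, and 4.20% held the AP-1 letters, 1.65% the CRE letters, 10.7% the TATA letters, 42.6% a GC box, 32.0% CCAAT and 17.5% the E-box letters. These matches describe letters and were not tested as sites. The table held entries for 9 of the 10 members, MAPKAPK2 being the other.

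Library totals ran between 14943189 and 22856407 counts. SIRT6 itself stood at 1370 to 3254 CPM (the count over the library's total, times 1000000) in the 9 A549 libraries with SIRT6, against 22.1 to 33.6 CPM in A549 Ctr. In H1299 it stood at 2490 to 14552 CPM with a construct, against 35.2 to 46.3 CPM in Ctr. The SIRT6 mean in A549 was 1548 ± 81.5 CPM with K3Q, against 2235.5 ± 780 CPM with WT and 2289 ± 934 CPM with K3R (SD, n = 3 each). The part of these levels in the differences between A549 constructs was not tested. CDKN2A, deleted in A549, had 0 to 24 counts per A549 library and 1795 to 2960 per H1299 library. The 5 markers listed for H1299 did not separate the lines, with sums of 917 to 1658 CPM in A549 and 988 to 1501 CPM in H1299. The 9 A549 markers summed to 12228 to 28472 CPM in A549 and 667 to 1148 CPM in H1299, while fibroblast, blood and endothelial lists summed to at most 24.6 CPM in any library. In A549 the 2-2 libraries of WT, K3R and Ctr stood apart, at 50.95 to 53.74 on the leading principal component, and K3Q 2-2 lay at -13.01, within the -36.16 to 1.47 of the other libraries. The counts of A549 K3Q 2-2 were closer to those of K3Q 1-2 (chi-square 2.49 per degree of freedom) than in any of the 23 other pairs within a group (14.4 to 63.6), although the labels name different biological replicates, so each A549 K3Q result was also run with that pair summed. In H1299 the 2-2 libraries of WT and K3R lay at -52.99 and -45.29, against -15.24 to 38.36 for the others.

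MAP2K6 was expressed in A549 and was nearly absent from H1299. MAP2K6 lies on chromosome 17 at 69414698 to 69553861, plus strand (GENCODE 29, GRCh38). Over all 12 libraries of each line it had 8574 counts among 209365059 in A549 and 13 among 225321954 in H1299, a ratio of 710 in CPM with a 95% exact interval of 415 to 1334 that covers counting error only. Between the Ctr groups the ratio was 446, with an interval of 216 to 1110. With K3R no H1299 library held a count, 0 of 59237577. A floor of 3 counts over the group would be 0.0506 CPM, and the A549 level was 708-fold that floor. The lower 95% exact limit of the ratio was 575. As in any bulk sample, fewer cells that express a gene and less RNA per cell cannot be told apart.

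In A549, MAP2K6 stood at 42.2, 28.1 and 27.7 CPM in WT libraries 1-1, 1-2 and 2-2, at 48.2, 30.2 and 29.1 CPM with K3R, and at 48.3, 33.2 and 34.0 CPM with K3Q, against 63.5, 46.4 and 59.1 CPM in Ctr. All 9 libraries with SIRT6 lay below the Ctr library of the same number, although in A549 the numbers were not taken to pair K3Q. The WT range lay wholly below the Ctr range, whereas the K3R and K3Q ranges overlapped it through their 1-1 libraries. Library 1-1, the batch 1 library, was the highest of its group in all 4 groups.

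The means in A549 were 32.7 ± 8.24 CPM for WT, 35.8 ± 10.7 CPM for K3R and 38.5 ± 8.51 CPM for K3Q, against 56.4 ± 8.88 CPM for Ctr (SD, n = 3 each). The batch-adjusted log2 changes against Ctr were -0.77 ± 0.10 with WT, -0.66 ± 0.10 with K3R and -0.51 ± 0.10 with K3Q (SE), and these are the values that chose the gene. Within batch 2 alone they were -0.87, -0.78 and -0.56, and without biological replicate 2 they were -0.64, -0.50 and -0.41. With the close K3Q pair summed, the K3Q value was -0.51. The order of the means was Ctr, K3Q, K3R and WT from high to low, and each group overlapped the next. K3Q lay above WT in 3 of 3 matched libraries (log2 0.27 ± 0.10) and above K3R in 3 of 3 (log2 0.15 ± 0.10), and K3R lay above WT in 3 of 3 (log2 0.12 ± 0.10).

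**Figure D1:**
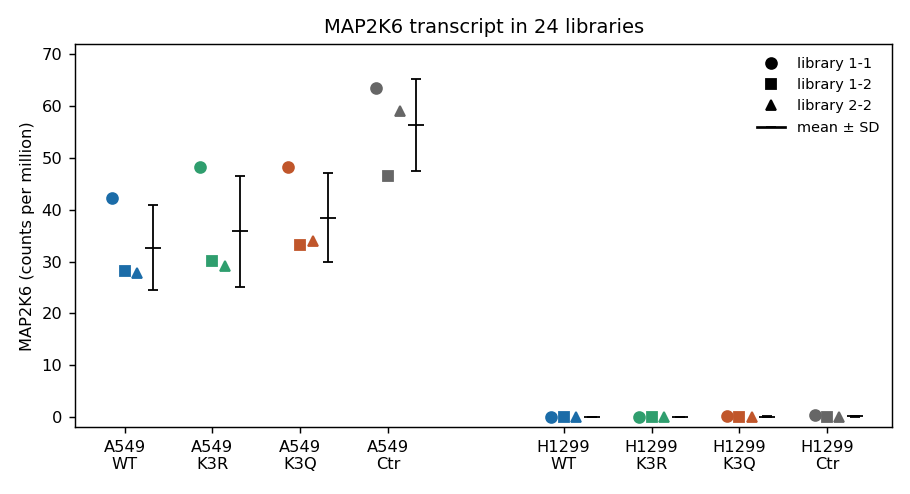
MAP2K6 in CPM (vertical axis) in each of the 24 libraries, grouped by line and construct, with symbols for the 3 libraries of a group and the mean ± SD beside them. A549 Ctr libraries sit between 46.4 and 63.5 CPM, the A549 SIRT6 libraries between 27.7 and 48.3 CPM, and no H1299 library exceeds 0.322 CPM.

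In H1299 the 13 MAP2K6 counts were 1, 0 and 0 in WT, 0, 0 and 0 with K3R, 4, 0 and 1 with K3Q, and 7, 0 and 0 in Ctr. Libraries of batch 1 held 12 of the 13, although they are 4 of the 12 libraries, and 8 libraries were at 0. The part of the batch in these counts was not tested. A library here could show 0.131 to 0.201 CPM at 3 counts, and at this depth no difference between H1299 constructs was detectable. The gene did not pass the filter on low counts in H1299 and has no test there.

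The members other than MAP2K6 were detected in both lines, and each differed between the Ctr groups, with 7 lower and 2 higher in A549. All 9 passed between A549 Ctr and H1299 Ctr by edgeR's quasi-likelihood test (adjusted p under 0.05, Benjamini-Hochberg over 18102 genes), as did 65.5% of all genes, and DESeq2 called 7. With so large a share of all genes called, this count is not a result about the pathway. Values after ± are SD for CPM (n = 3) and SE for log2 changes throughout.

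**Figure D2:**
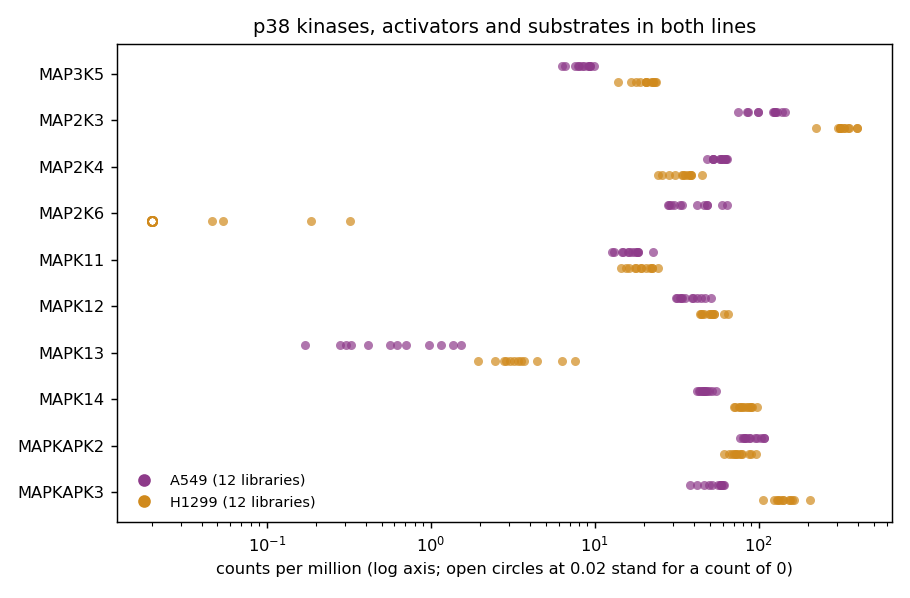
Level in CPM on a log axis (horizontal) for the 10 genes, 1 point per library, with A549 above H1299 for each gene. MAP2K6 is the member whose lines lie farthest apart, at 27.7 to 63.5 CPM in A549 and at most 0.322 CPM in H1299. Its open circles mark the 8 H1299 libraries without a count.

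Among the upstream kinases, MAP3K5 (chromosome 6, 136557047 to 136792518, minus strand) averaged 8.43 ± 1.85 CPM in A549 Ctr and 22.4 ± 1.83 CPM in H1299 Ctr (log2 -1.26 ± 0.15, adjusted p = 2.71e-07 in edgeR). MAP2K3 (chromosome 17, 21284672 to 21315240, plus strand) averaged 103.3 ± 19.8 CPM in A549 Ctr and 337.5 ± 51.9 CPM in H1299 Ctr (log2 -1.55 ± 0.13, adjusted p = 1.63e-09). MAP2K4 (chromosome 17, 12020824 to 12143830, plus strand) went the other way, with 57.4 ± 4.87 CPM in A549 Ctr and 34.1 ± 3.60 CPM in H1299 Ctr (log2 0.92 ± 0.15, adjusted p = 1.69e-05). The Ctr ranges of these 3 did not overlap, in a comparison where 65.5% of all genes were called. The share of all genes without overlap is not given here, so nothing is read from this. H1299 thus had the higher MAP2K3 level and next to no MAP2K6, and A549 had both.

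Per kilobase of exon, MAP2K3 was the highest of the 10 genes in both lines, at 29.7 CPM per kb in A549 and 86.6 CPM per kb in H1299 (means over 12 libraries). The rank of MAP2K6 in A549 depended on the length used. It was 8th of 10 over all annotated exons, 16655 bases, and 5th over the median protein-coding transcript, 1509 bases.

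Among the p38 kinases, MAPK14 (p38 alpha, the most widely expressed form, on chromosome 6 at 36027677 to 36111236, plus strand) averaged 49.4 ± 4.71 CPM in A549 Ctr and 79.5 ± 9.56 CPM in H1299 Ctr (log2 -0.52 ± 0.08, adjusted p = 1.6e-05 in edgeR). MAPK13 (p38 delta, 16572 bases from MAPK14, at 36127809 to 36144524) was low in both lines, at 0.716 ± 0.697 CPM in A549 Ctr and 3.07 ± 0.309 CPM in H1299 Ctr (log2 -1.97 ± 0.50, adjusted p = 0.00161). A549 libraries held 3 to 25 MAPK13 counts each, and A549 Ctr 2-2 at 1.52 CPM stood above Ctr 1-1 and 1-2 at 0.326 and 0.302 CPM. MAPK13 was the scarcest p38 kinase per kilobase in both lines, under either length.

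MAPK11 (p38 beta) and MAPK12 (p38 gamma) are neighbours on chromosome 22, with 1887 bases between them, at 50263713 to 50270767 and 50245450 to 50261825, both on the minus strand. MAPK11 averaged 14.5 ± 1.75 CPM in A549 Ctr and 20.8 ± 2.67 CPM in H1299 Ctr (log2 -0.36 ± 0.15, adjusted p = 0.0473 in edgeR). MAPK12 averaged 34.7 ± 4.12 CPM in A549 Ctr and 47.7 ± 3.50 CPM in H1299 Ctr (log2 -0.29 ± 0.12, adjusted p = 0.0448). Both lay just under the threshold. MAPK12 missed it with each Ctr library left out in turn, with log2 values of -0.34 to -0.20, and MAPK11 in 5 of 6 such fits, with -0.43 to -0.27. HDAC10 shares 2763 exon bases and the strand with MAPK12, so reads there could be assigned to either gene or to neither, and HDAC10 itself was counted at 0.747 ± 0.212 CPM in A549 Ctr and 1.77 ± 0.463 CPM in H1299 Ctr.

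Of the substrate kinases, MAPKAPK2 (chromosome 1, 206684944 to 206734283, plus strand) averaged 99.6 ± 7.32 CPM in A549 Ctr and 77.8 ± 10.2 CPM in H1299 Ctr (log2 0.53 ± 0.11, adjusted p = 0.000356 in edgeR). MAPKAPK3 (chromosome 3, 50611520 to 50649297, plus strand) averaged 49.8 ± 7.12 CPM in A549 Ctr and 119.6 ± 11.9 CPM in H1299 Ctr (log2 -1.11 ± 0.11, adjusted p = 2.1e-08). The 2 kinases, which phosphorylate many of the same proteins, thus differed between the lines in opposite directions. For neither gene did the Ctr ranges overlap, and nothing is read from this either, with 65.5% of all genes called.

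None of the 9 other members passed in A549 between any pair of constructs. By edgeR's quasi-likelihood test over 16120 genes, 0 of 9 passed for WT, K3R and K3Q against Ctr, where 0.105%, 0.118% and 0.0248% of all genes were called, and nothing is read from these shares. At an unadjusted p under 0.05 the counts were 4, 2 and 0, beside 1279, 1115 and 1390 of all genes. DESeq2 called 0 members in each. For K3R against WT, K3Q against WT and K3Q against K3R, 0 of 9 passed, beside 0.0%, 0.0062% and 0.0062% of all genes. Unadjusted, 0, 2 and 2 were under 0.05, beside 116, 1041 and 708 of all genes, and DESeq2 again called 0 members. A block for the replicate number was fitted over all 12 A549 libraries, although the numbers were taken to pair only WT, K3R and Ctr. With it 0.651% of all genes were called for WT and 0.546% for K3R against Ctr, and still 0 of 9 members. The comparisons with Ctr share the Ctr libraries, as those with WT share the WT libraries.

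**Figure D3:**
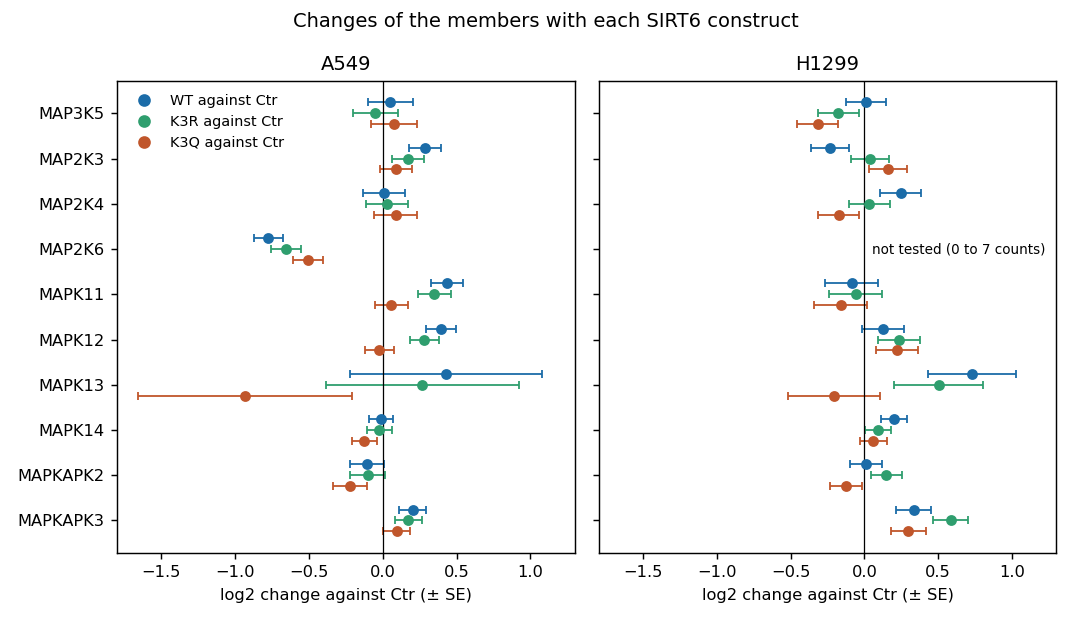
Log2 change against Ctr (horizontal axis, points with SE bars) of each gene with WT, K3R and K3Q in A549 (left) and H1299 (right). In A549 MAP2K6 lies at -0.77, -0.66 and -0.51 with WT, K3R and K3Q. MAPK13 lies there at 0.43, 0.27 and -0.93, with SE of 0.65 to 0.73. The other members in A549 lie between -0.22 and 0.44, and in H1299 MAPKAPK3 with K3R lies at 0.59.

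MAPK11 and MAPK12 gave the lowest unadjusted p-values among the 9 in A549 WT against Ctr. MAPK11 stood at 16.9, 18.2 and 22.6 CPM in WT and 17.6, 18.4 and 18.2 CPM with K3R, against 12.7, 14.8 and 16.1 CPM in Ctr. Both SIRT6 ranges lay above the Ctr range, with log2 values of 0.44 ± 0.11 for WT and 0.35 ± 0.11 for K3R and adjusted p of 0.209 and 0.419 (edgeR). With K3Q it stood at 13.0, 14.5 and 15.9 CPM, inside the span of Ctr (log2 0.06 ± 0.11).

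MAPK12 followed a like order, with 39.3, 44.1 and 50.9 CPM in WT, 35.6, 47.0 and 42.0 CPM with K3R and 31.0, 33.9 and 33.4 CPM with K3Q, against 33.0, 31.8 and 39.4 CPM in Ctr. WT and K3R were each higher than Ctr in 3 of 3 matched libraries but overlapped it (log2 0.40 ± 0.10 and 0.28 ± 0.10, adjusted p = 0.209 and 0.523 in edgeR). K3Q lay below the WT range for both genes, by log2 -0.38 ± 0.11 for MAPK11 and -0.42 ± 0.10 for MAPK12, with adjusted p of 0.545 and 0.407. None of these differences passed.

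For the remaining members in A549, MAP2K3 averaged 123.7 ± 23.3 CPM in WT, 115.6 ± 28.0 CPM with K3R and 107.3 ± 28.7 CPM with K3Q, against 103.3 ± 19.8 CPM in Ctr (log2 0.29 ± 0.11 for WT, adjusted p = 0.527 in edgeR). MAPKAPK3 had a log2 value of 0.20 ± 0.09 with WT (adjusted p = 0.622). MAPK14 and MAPKAPK2 with K3Q lay wholly below Ctr, at 41.8 to 45.3 CPM against 46.5 to 54.8 CPM for MAPK14 and 77.1 to 88.7 CPM against 94.1 to 107.9 CPM for MAPKAPK2. Their log2 values were -0.12 ± 0.08 and -0.22 ± 0.12, with adjusted p of 0.690 and 0.631. MAP3K5 and MAP2K4 stayed within log2 -0.05 to 0.09 of Ctr with all 3 constructs. MAPK13, at 3 to 25 counts per library, had log2 values of 0.43 ± 0.65, 0.27 ± 0.66 and -0.93 ± 0.73 with WT, K3R and K3Q. None of these passed in edgeR, nor did MAPK13 for K3Q against WT (log2 -1.36 ± 0.70, adjusted p = 0.825). There K3Q was lower in 3 of 3 same-numbered libraries.

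In H1299, as tested without a replicate block, MAPKAPK3 rose with K3R and was the only member to pass between constructs. With the block, MAPKAPK3 for WT against Ctr and 3 members for K3Q against WT passed as well. By edgeR over 16262 genes, 0 of 9 passed for WT against Ctr, beside 4.05% of all genes, 1 of 9 for K3R against Ctr, beside 3.25%, and 0 of 9 for K3Q against Ctr, beside 0.0615%. At an unadjusted p under 0.05 the counts were 3, 1 and 2, beside 2849, 2867 and 1580 of all genes. DESeq2 called 0, 1 and 0 members. A share of 1 in 9 rests on that gene alone and is not a result about the set. With the replicate block 9.75%, 8.56% and 0.836% of all genes were called, and 1, 1 and 0 members.

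MAPKAPK3 stood at 162.8, 152.1 and 203.7 CPM with K3R, against 129.3, 106.2 and 123.1 CPM in Ctr. The K3R range lay wholly above the Ctr range, and K3R was higher in 3 of 3 matched libraries. The mean was 172.9 ± 27.2 CPM with K3R and 119.6 ± 11.9 CPM in Ctr (log2 0.59 ± 0.12, adjusted p = 0.0187 in edgeR). With WT it averaged 149.0 ± 12.6 CPM (log2 0.33 ± 0.12, adjusted p = 0.146) and with K3Q 137.3 ± 4.97 CPM (log2 0.30 ± 0.12, adjusted p = 0.435), and both groups also lay above every Ctr library. K3R did not pass against WT (log2 0.25 ± 0.12, adjusted p = 0.999), nor K3Q against K3R (log2 -0.29 ± 0.12, adjusted p = 0.338).

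With a block for the replicate number, the WT value passed as well (log2 0.33, adjusted p = 0.0459), but not with biological replicate 1 summed (log2 0.34, adjusted p = 0.439). The K3R value did not pass without Ctr 1-2 (adjusted p = 0.0827), Ctr 2-2 (0.0614), K3R 1-1 (0.0792) or K3R 2-2 (0.0884), nor in batch 2 alone (log2 0.68, adjusted p = 0.147) or with biological replicate 1 summed (log2 0.63, adjusted p = 0.127). CISH lies on the other strand and shares 218 exon bases with MAPKAPK3. It was counted at 1.59 ± 0.264 CPM with K3R and 0.883 ± 0.455 CPM in Ctr, and because the strand setting of the counting is not given, reads of the shared bases cannot be told apart.

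**Figure D4:**
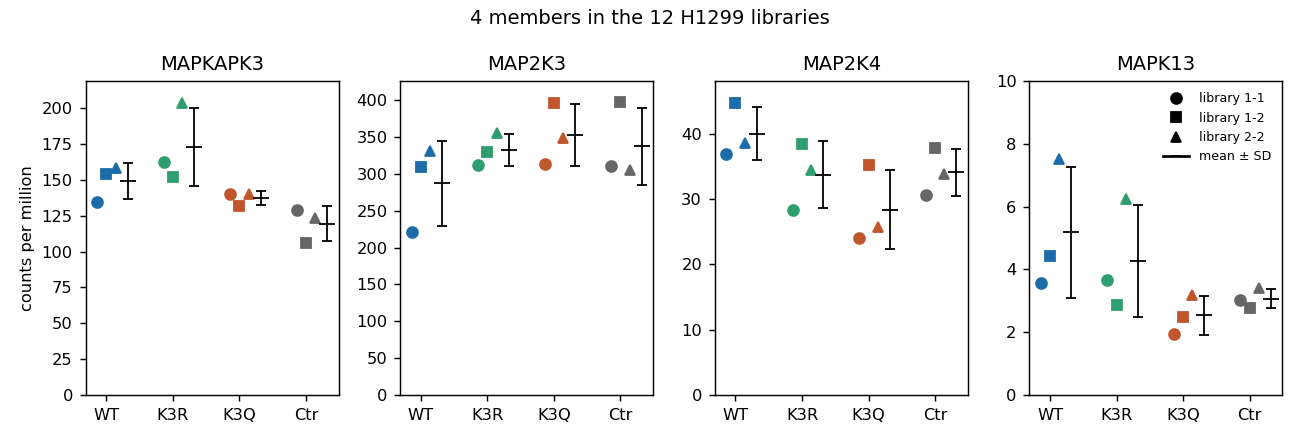
Level in CPM (vertical axes, each from 0) of 4 members in the 12 H1299 libraries, with the mean ± SD beside each group. MAPKAPK3 with K3R lies at 152.1 to 203.7 CPM, above Ctr at 106.2 to 129.3 CPM. MAPK13 is highest in the 2-2 library of each group, most so with WT and K3R.

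Against WT, as tested without a replicate block, K3Q left 4 members in H1299 with an unadjusted p under 0.05 and none that passed. Of all 16262 genes, 3296 had an unadjusted p under 0.05. By edgeR 0 of 9 passed beside 3.46% of all genes, and DESeq2 also called 0. MAPK13 stood at 1.95, 2.48 and 3.19 CPM with K3Q, against 3.57, 4.44 and 7.53 CPM with WT (log2 -0.93 ± 0.30, adjusted p = 0.109). MAP2K4 stood at 24.1, 35.3 and 25.7 CPM with K3Q, against 36.9, 44.7 and 38.5 CPM with WT (log2 -0.42 ± 0.14, adjusted p = 0.113). The K3Q range lay wholly below the WT range for both.

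MAP2K3 was higher with K3Q in 3 of 3 matched libraries, at 313.2, 397.0 and 348.4 CPM, against 221.8, 309.9 and 330.6 CPM with WT, but the ranges overlapped (log2 0.39 ± 0.13, adjusted p = 0.113). MAP3K5 averaged 17.0 ± 3.41 CPM with K3Q and 22.4 ± 0.257 CPM with WT (log2 -0.33 ± 0.14, adjusted p = 0.202). With the replicate block, 3 of the 4 passed: MAPK13 (log2 -0.92, adjusted p = 0.0191), MAP2K4 (-0.43, 0.0131) and MAP2K3 (0.39, 0.0365), beside 1946 of 16262 genes. With biological replicate 1 summed none of the 4 passed (adjusted p of 0.334 to 0.684). Without biological replicate 2, MAP3K5, MAP2K3 and MAP2K4 passed.

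In A549 the K3Q range of SIRT6, 1474 to 1635 CPM, lay inside those of WT and K3R, although the K3Q mean was lower. In H1299 the constructs did not reach equal levels. SIRT6 stood at 10434 to 14552 CPM with K3Q and at 2490 to 6877 CPM with WT, and its part in the K3Q and WT differences was not tested. MAPK13 was highest in the 2-2 library of every H1299 group, at 7.53 CPM with WT, 6.26 with K3R, 3.19 with K3Q and 3.39 in Ctr. SIRT6 was also highest in 2-2 with WT and K3R, at 6877 and 6075 CPM. With K3Q and in Ctr SIRT6 was highest in 1-1, at 14552 and 46.3 CPM. Without WT 2-2 the MAPK13 value for K3Q against WT was log2 -0.63 (adjusted p = 0.308 in edgeR).

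For K3R against WT and K3Q against K3R in H1299, 0 of 9 passed in edgeR, beside 0.0% and 0.449% of all genes (0.0% and 3.23% with the replicate block, and again 0 of 9). Unadjusted, 0 and 3 were under 0.05, beside 486 and 1938 of all genes, and DESeq2 called 0 members. MAPKAPK2 with K3Q lay below the K3R range, at 61.4 to 72.8 CPM against 75.5 to 95.8 CPM (log2 -0.27 ± 0.11, adjusted p = 0.317). MAPK14 with WT averaged 90.3 ± 7.11 CPM against 79.5 ± 9.56 CPM in Ctr (log2 0.20 ± 0.09, adjusted p = 0.260). MAPK11 and MAPK12 had log2 values of -0.09 ± 0.18 and 0.13 ± 0.14 with WT in H1299.

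The responses of the 9 members were not shown to differ between the lines. In edgeR's test of the difference between lines over 18102 genes, 0 of 9 passed for WT, K3R and K3Q against Ctr, beside 0.735%, 0.475% and 0.0166% of all genes. At an unadjusted p under 0.05 the counts were 2, 1 and 0, beside 1688, 1479 and 1135 of all genes. DESeq2 called 0 members in each. The largest for WT were MAPK11 and MAP2K3, each with an A549 minus H1299 value of log2 0.52 (SE 0.22 and 0.18, adjusted p = 0.418 and 0.262). For K3R it was MAPKAPK3, at -0.42 ± 0.15 (adjusted p = 0.363). For MAP2K6 a difference of changes has no meaning, since H1299 lay at or near 0 counts in every group.

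Around the pathway, no gene of 5 lists passed in A549 between any pair of constructs as tested without a replicate block, while 3 genes passed for WT against Ctr and 7 for K3Q against WT in H1299. The lists hold 99 genes: 26 upstream MAP3Ks and adaptors, 17 phosphatases of p38 and other MAP kinases, 25 other p38 substrates, 18 transcripts known to be stabilised through MAPKAPK2, and 13 kinases of the JNK and ERK branches. In A549, 92 were tested in edgeR, and 0 passed in each of the 6 comparisons, beside 0.0% to 0.118% of all genes. For WT against Ctr and K3Q against WT in H1299, 4.05% and 3.46% of all genes were called. The contrast in counts between the lines is thus not a result about the lists. At an unadjusted p under 0.05 in A549 there were 6 for WT, 4 for K3R and 11 for K3Q against Ctr. Of all 16120 genes, 1279, 1115 and 1390 were under 0.05 there. For K3R against WT, K3Q against WT and K3Q against K3R there were 0, 6 and 5, beside 116, 1041 and 708 of all genes. DESeq2 called DUSP9 for WT and ZFP36L1 for K3Q against Ctr, and 0 in the other 4.

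Among the A549 phosphatases, DUSP9, which acts mainly on ERK and p38, averaged 9.22 ± 2.48 CPM in WT, 7.80 ± 3.39 CPM with K3R and 6.58 ± 0.991 CPM with K3Q, against 3.42 ± 1.61 CPM in Ctr (log2 1.47 ± 0.39 for WT, adjusted p = 0.244 in edgeR). With the replicate block the WT value of DUSP9 passed (log2 1.49, adjusted p = 0.0389), and no list gene passed for K3R against Ctr. The block gave 2 list genes for K3Q against Ctr and 1 for K3Q against WT, beside 0.893% and 0.124% of all genes. The numbers were not taken to pair K3Q there. With biological replicate 1 summed DUSP9 had an adjusted p of 1.0. Of the substrates, ZFP36L1, an RNA-binding protein that shortens the life of AU-rich transcripts, averaged 155 ± 5.64 CPM with K3Q and 219 ± 25.9 CPM in Ctr (log2 -0.43 ± 0.11, adjusted p = 0.260). RPS6KA5 (MSK1) had log2 -1.02 ± 0.29 with K3Q (adjusted p = 0.335). In A549 against Ctr, the medians of the 5 lists lay within log2 -0.13 to 0.12 with each construct, except that the MAPKAPK2-dependent transcripts had -0.52 with K3Q, beside 0.00 over all genes. That median was -0.11 without Ctr 2-2 and 0.08 without biological replicate 2, so it rests on those libraries. In H1299 the same list had -0.41 with WT, -0.27 with K3R and -0.13 with K3Q, the phosphatases had -0.19 with WT, and the other list medians lay within -0.09 to 0.09, beside -0.01 over all genes. The MAPKAPK2-dependent list includes IL6, which in A549 was at 0 counts in all K3Q libraries and averaged 0.972 ± 1.24 CPM in Ctr. The 9 members other than MAP2K6 had medians of 0.20, 0.17 and 0.06 with WT, K3R and K3Q against Ctr in A549.

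In H1299, GADD45B, a stress-induced activator of MAP3K4, fell with WT to 51.3 ± 7.32 CPM, against 83.3 ± 27.2 CPM in Ctr (log2 -0.67 ± 0.14, adjusted p = 0.0197 in edgeR). TRAF2, an adaptor that couples TNF receptors to MAP3Ks, fell to 61.0 ± 8.49 CPM with WT, against 81.2 ± 2.56 CPM in Ctr (log2 -0.40 ± 0.10, adjusted p = 0.0434). CXCL2, a neutrophil chemokine, fell to 107.0 ± 25.5 CPM with WT, against 210.5 ± 48.1 CPM in Ctr (log2 -0.99 ± 0.18, adjusted p = 0.00964). CXCL2 passed in all 6 fits that left out a library, GADD45B in 3 and TRAF2 in 1, and each kept its direction in all 15 alternatives. Parts of CXCL2 closely resemble CXCL1 and CXCL3, so its counts are uncertain to that extent. These are 3 of 89 genes tested, beside 4.05% of all genes, and DESeq2 called 5, with DUSP10 and MEF2C in addition.

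K3Q against WT gave the opposite sign for the same 3 genes in H1299, and the comparisons share the WT libraries. GADD45B averaged 73.2 ± 8.02 CPM with K3Q and 51.3 ± 7.32 CPM with WT (log2 0.60 ± 0.14, adjusted p = 0.0363 in edgeR), TRAF2 81.9 ± 9.15 CPM with K3Q and 61.0 ± 8.49 CPM with WT (log2 0.51 ± 0.10, adjusted p = 0.0194), and CXCL2 191.7 ± 55.5 CPM with K3Q and 107.0 ± 25.5 CPM with WT (log2 0.91 ± 0.18, adjusted p = 0.0180). The phosphatases DUSP10 and DUSP5 rose, DUSP10 to 8.28 ± 1.96 CPM with K3Q, against 4.02 ± 0.803 CPM with WT (log2 1.13 ± 0.25, adjusted p = 0.0283). DUSP10 acts on p38 and JNK and DUSP5 on ERK, and DUSP5 averaged 162.0 ± 34.9 CPM with K3Q and 89.8 ± 8.45 CPM with WT (log2 0.92 ± 0.14, adjusted p = 0.00659). Lower with K3Q were MAP3K20, the ribosome-stress kinase ZAK, at 30.7 ± 3.82 CPM with K3Q and 49.7 ± 2.78 CPM with WT (log2 -0.62 ± 0.12, adjusted p = 0.0158), and MEF2C, a transcription factor that p38 activates, at 17.8 ± 3.17 CPM with K3Q and 30.1 ± 3.17 CPM with WT (log2 -0.68 ± 0.16, adjusted p = 0.0372).

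These 7 are among 89 genes tested, beside 3.46% of all genes, and DESeq2 called 8, TAB2 being the other. Leaving out each library in turn, DUSP5 passed in 5 of 6 fits, CXCL2 and MAP3K20 in 3, DUSP10 and TRAF2 in 2, MEF2C in 1 and GADD45B in 0, and none changed sign in 15 alternatives. K3R against Ctr, K3Q against Ctr, K3R against WT and K3Q against K3R had 0 list genes passing in edgeR. The shares of all genes called were 3.25%, 0.0615%, 0.0% and 0.449%. At an unadjusted p under 0.05 there were 12, 8, 5 and 11 list genes, beside 2867, 1580, 486 and 1938 of 16262 genes. DESeq2 called 2, 1, 0 and 1 list genes, these being RPS6KA5 and CXCL2, MAP3K20, and DUSP5. With the replicate block 11 list genes passed for WT against Ctr and 14 for K3Q against WT, among them all 3 and all 7 of those above; 6, 1, 0 and 4 passed for K3R against Ctr, K3Q against Ctr, K3R against WT and K3Q against K3R. The difference between lines passed for 0 of 94 list genes under WT, K3R and K3Q, beside 0.735%, 0.475% and 0.0166% of all genes. At an unadjusted p under 0.05 there were 7, 2 and 7, beside 1688, 1479 and 1135 of 18102 genes. DESeq2 called 1, 0 and 1 (DUSP7 for WT, MAP3K20 for K3Q). With the replicate block 2, 0 and 1 list genes passed this test of the lines, beside 2.40%, 1.66% and 0.204% of all genes.

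Between A549 Ctr and H1299 Ctr, 56 of 94 list genes passed in edgeR, 30 higher in A549 and 26 lower, beside 65.5% of all genes. DUSP4, a nuclear phosphatase, averaged 338 ± 102 CPM in A549 Ctr and 0.167 ± 0.137 CPM in H1299 Ctr. DUSP1, which removes phosphate from p38, averaged 176 ± 75.2 CPM in A549 Ctr and 34.5 ± 3.82 CPM in H1299 Ctr (log2 2.49 ± 0.29, adjusted p = 2.51e-07). CXCL2 averaged 7.99 ± 5.64 CPM in A549 Ctr and 210.5 ± 48.1 CPM in H1299 Ctr, and MEF2C 0.0181 ± 0.0314 CPM in A549 Ctr and 20.6 ± 3.92 CPM in H1299 Ctr. MAP3K7 (TAK1) averaged 41.2 ± 2.95 CPM in A549 Ctr and 125 ± 5.32 CPM in H1299 Ctr (log2 -1.44 ± 0.11, adjusted p = 6.45e-10).

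The genes whose A549 profile was most like that of MAP2K6 were found by the root mean square difference of log2 CPM, each centred on its mean over the 12 libraries, among 12596 genes. They were GYG2 at 0.114, RALGPS2 at 0.143, TFIP11-DT at 0.144, ASIC1 at 0.147 and HIF1A at 0.148, where a flat gene would give 0.387. GYG2, a glycogenin that primes glycogen synthesis, averaged 11.9 ± 3.30 CPM in WT, 11.5 ± 2.87 CPM with K3R and 14.5 ± 3.68 CPM with K3Q, against 21.6 ± 3.13 CPM in Ctr. HIF1A, the oxygen-regulated subunit of a transcription factor, averaged 163.6 ± 39.1, 157.4 ± 33.6 and 155.1 ± 38.5 CPM with WT, K3R and K3Q, against 229.8 ± 43.6 CPM in Ctr. These profiles share their libraries and were ranked for likeness, so their shape is a description.

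Of the 5, GYG2 was also near 0 in H1299, at 0 to 0.597 CPM, while RALGPS2 stood there at 2.76 to 8.69 CPM, TFIP11-DT at 2.53 to 5.24 CPM, ASIC1 at 4.10 to 10.2 CPM and HIF1A at 70.9 to 121 CPM. GYG2 lies on the X chromosome, RALGPS2 on chromosome 1, ASIC1 on chromosome 12 and HIF1A on chromosome 14. No such ranking was possible in H1299, where 8 of 12 MAP2K6 values are 0.

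**Figure D5:**
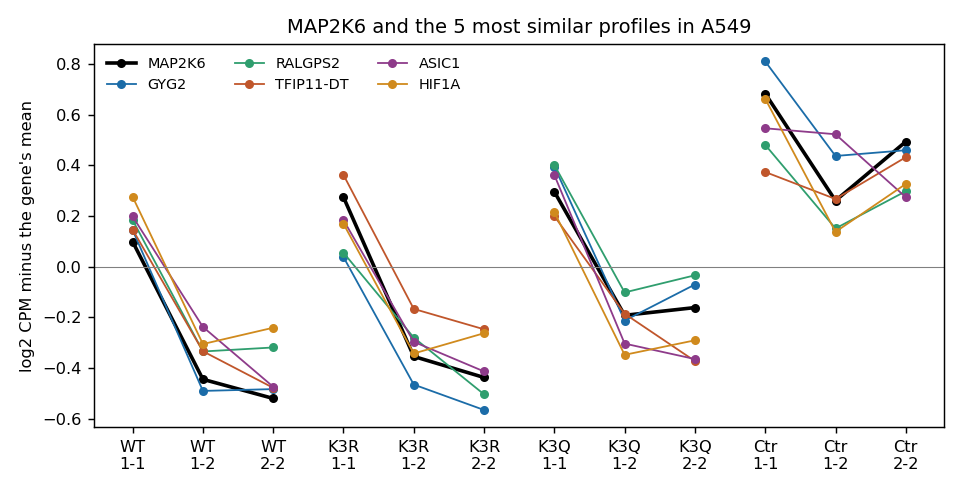
Log2 CPM minus the gene's own mean (vertical axis) of MAP2K6 and the 5 genes of most similar profile, over the 12 A549 libraries ordered by construct. In each of the 6 genes all 3 Ctr libraries lie above 0 and batch 2 libraries with WT, K3R or K3Q lie below it.

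None of the neighbours of MAP2K6 on chromosome 17 passed against Ctr in A549 (edgeR adjusted p of 0.575 to 1.0). By distance between starts, negative towards lower coordinates, FAM20A lies at -813.3 kb, ABCA10 at -169.9 kb and ABCA5 at -87.5 kb, and KCNJ16, KCNJ2 and KCNJ2-AS1 lie at 638.7, 754.0 and 754.7 kb. ABCA5, the nearest and best expressed, had log2 values of -0.01 ± 0.20, -0.01 ± 0.21 and -0.07 ± 0.21 with WT, K3R and K3Q. Between the lines, ABCA5 had a median of 6.32 CPM in A549 and 1.43 CPM in H1299, KCNJ16 of 0.908 CPM in A549 and 0 CPM in H1299, and ABCA10 lay the other way, at 0.255 CPM in A549 and 2.41 CPM in H1299.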

How the data were processed

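RNA was counted in 24 libraries, 3 per construct and line. Per the labels, total RNA went into a SMARTER mRNA-Seq preparation. The deposited values are raw counts per gene symbol made by the authors, who per the submitters' processing notes used FastQC, cutadapt, STAR, featureCounts and build GRCh38. For versions, annotation release and strand setting, no statement is given in the sources used here. GENCODE 29 was joined by symbol and matched 37664 of 59385 symbols uniquely, and that release may differ from the authors' own.

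Genes were filtered with filterByExpr and scaled by TMM. Construct and batch were tested in edgeR 4.0.16 (R 4.3.3), per line over 16120 genes in A549 and 16262 in H1299, and over 18102 genes for comparisons between lines, with batch within line. A gene passed at a Benjamini-Hochberg adjusted p under 0.05. SE is the absolute log2 change over the square root of F. CPM is the count over the library's total, with no TMM factor, so its ratios can differ slightly from log2 changes. Profiles for likeness used log2 CPM with a prior count of 2 and a minimum mean of 1. DESeq2 1.42.0 was an alternative, and other settings were another scaling, no filter, no batch term, a replicate block, summed replicates, batch 2 alone, and each library left out. Intervals and floors of 3 counts cover counting error only.

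Replicate numbers paired the H1299 libraries: the 18 correlations of same-numbered deviations were 0.134 to 0.549. In A549 the 15 that do not involve K3Q 2-2 were 0.278 to 0.749, so the numbers were taken to pair WT, K3R and Ctr. Those of K3Q 2-2 were 0.0569 to 0.119, with 1 of 3 over 0.1, so comparisons with K3Q were not taken as paired there. The scripts were tested on simulated data.

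The members and lists were chosen with earlier results of these data known. All 10 members are named in the text or in a stated range. Of each list, genes that passed are named, up to 3 a direction by log2 change, or the 2 of lowest p where none passed, with values given in the text for a choice of these. Nearest neighbours are the 3 tested genes on each side by start, and the 5 genes most like MAP2K6 are named. Genes called by DESeq2 alone were named after their values were seen. A further marker of line identity is not reported here.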

Additional observations from a re-analysis of the deposited data

Results flagged for a closer look

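In 4 cases every library moved one way in A549 and the other way in H1299, against the library of the same number. These came from a look at 9 members in each of 6 comparisons of constructs. The share of all genes with such a pattern is not given here, so the count is not a result about the members. MAPK11 was higher with WT than in Ctr in 3 of 3 A549 pairs of libraries and lower in 3 of 3 H1299 pairs, and the A549 minus H1299 difference of the log2 changes was 0.52 (SE 0.22), with an adjusted p of 0.418 in edgeR's test of the difference. MAPKAPK2 was lower with K3R than in Ctr in 3 of 3 A549 pairs and higher in 3 of 3 H1299 pairs, a difference of -0.26 (SE 0.16), with an adjusted p of 0.756. Neither difference passed. MAP2K3 was lower than with WT in 3 of 3 A549 pairs and higher in 3 of 3 H1299 pairs, both with K3R (log2 -0.11 in A549 and 0.27 in H1299, a difference of -0.38) and with K3Q (log2 -0.20 in A549 and 0.39 in H1299, a difference of -0.59). These 2 differences were not tested, they share the WT libraries, and neither line's value passed in edgeR. In A549 the numbers were not taken to pair K3Q with WT, and K3Q 1-2 and 2-2 were close in their counts. The 3 of 3 for K3Q there is thus a count of same-numbered libraries only.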

How the results depend on the processing

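Among the 9 members other than MAP2K6, some values passed in the reported fit, namely MAPKAPK3 for K3R against Ctr in H1299 and all 9 between the Ctr groups. These kept their sign in all 15 and 13 alternatives run. The count of members called in H1299 for WT against Ctr was 0 as reported, 1 with the replicate block and 1 (MAP2K3) without biological replicate 2. For K3R against Ctr it was 1 as reported, 0 with biological replicate 1 summed, 0 in batch 2 alone, and 0 to 1 with each library left out. For K3Q against Ctr it was 0 as reported and 2 (MAP3K5 and MAPKAPK3) without biological replicate 2. For K3Q against WT it was 0 as reported, 3 with the replicate block, 2 with no low-count filter, and 3 without biological replicate 2. The setting without biological replicate 2, the summed K3Q pair with the block, and libraries left out between lines were chosen after seeing the data. Summing and batch 2 alone leave fewer libraries, and the cause of the other shifts was not tested. The replicate block changed no other call of a member in H1299. In A549 it gave 0 in each of the 6 comparisons. Between A549 Ctr and H1299 Ctr 7 to 8 of 9 passed with each library left out and 6 to 9 in the other settings, against 9 as reported. The A549 value of MAP2K6 ran over the alternatives from -0.87 to -0.64 for WT, -0.78 to -0.50 for K3R and -0.60 to -0.40 for K3Q against Ctr. The alternatives reuse the libraries whose values chose the gene, so the kept sign is a description and lends no support.

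Counts over all genes moved far more. Against Ctr in A549 they ran from 1 to 374 for WT (17 as reported), 1 to 394 for K3R (19) and 1 to 641 for K3Q (4), and in H1299 from 90 to 1585 (659), 20 to 1392 (528) and 1 to 2028 (10). For K3Q against WT they ran from 0 to 332 in A549 (1) and 8 to 4033 in H1299 (563), and for K3Q against K3R from 0 to 228 (1) and 0 to 1293 (73). Each background share rests on the reported fit. Depth limits MAP2K6 in H1299 and MAPK13 in A549.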
